A study of Mus musculus with 82 samples.

Results

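T12 and 4T1 are 2 transplantable mouse mammary tumour models of the BALB/c strain, compared here through bulk RNA sequencing of whole tumours. The comparison used the 3 T12 and the 5 4T1 libraries of the count table, 8 of the 82 libraries in the series, which covers 13 mammary tumour models. The labels give each library as an individual BALB/c mammary tumour, stored frozen, with total RNA sequenced through an Illumina TruSeq mRNA kit. They give no age, passage, clone or site of growth, and name no agent or treatment for either group. The comparison asks how the tumour cells and the myeloid infiltrate differed between the models on a shared strain background. Each model is 1 line, so a difference between them is a difference between lines and not between subtypes of tumour.

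Epithelial cells are held together by claudins, occludin, E-cadherin and desmosomes, and in claudin-low tumours, a class named for the loss of these genes, transcription factors of the ZEB, SNAI and TWIST families are known to repress them. 4T1 is a widely used metastatic mammary line known for the granulocyte expansion it causes in its host, whereas T12 is known as a claudin-low line from a p53-deficient mammary tumour with many macrophages. Neutrophils are made and mobilised under G-CSF (Csf3) and drawn in through the receptor CXCR2, and macrophages depend on the receptor CSF1R and its ligands CSF1 and IL-34.

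The T12 libraries held 73799337 to 86707122 counts and the 4T1 libraries 76706954 to 108636324. Levels are CPM, a gene's count relative to the library's total count on a scale common to all libraries, and log2 differences are T12 minus 4T1, fitted with edgeR's quasi-likelihood test over all 82 libraries. A gene was called at a Benjamini-Hochberg adjusted p under 0.05. Of 22847 genes tested, 7413 (32.4%) were called, 3513 (15.4%) of them higher in T12 and 3900 (17.1%) higher in 4T1. At a difference of at least 4-fold 2608 (11.4%) were called, 1053 (4.61%) higher in T12 and 1555 (6.81%) higher in 4T1. A fit of the 8 libraries alone called 61.6% of the 18459 genes it tested, 31.3% higher in T12 and 30.3% higher in 4T1. All 3 T12 libraries lay above all 5 4T1 libraries for 25.6% of the genes tested, and below them for 26%. These shares are the background for each count below. The library numbers in the labels form separate series for T12 and 4T1, the labels do not say what they mean, and anything that moved with them cannot be told apart from the model. The tumours are described as biological replicates within a model. The p-values of the 82-library fit set a difference against a spread within models shared by all 13 models. They do not rest on the spread among these 8 tumours alone. In such bulk RNA fewer cells of a type and less RNA per cell cannot be told apart.

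T12 tumours had almost no RNA of the epithelial junction genes that 4T1 tumours kept. Epcam, the epithelial adhesion molecule, was at 1.13, 0.504 and 0.347 CPM in the 3 T12 libraries and at 345, 558, 284, 278 and 366 CPM in the 5 4T1 libraries (log2 difference -9.12, standard error 0.39, adjusted p = 3.4e-32). The groups were far apart, and T12 had the lowest Epcam mean of the 13 models. Cdh1, which encodes E-cadherin, was at 6.13, 4.91 and 5.88 CPM in T12 and 165, 231, 191, 142 and 186 CPM in 4T1 (log2 difference -5.02, standard error 0.31, adjusted p = 2.0e-23). So T12 retained a low level of Cdh1 in every library while Epcam was closer to 0.

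Of 20 junction genes tested, 18 were called higher in 4T1 and 1 higher in T12, and 16 of the 18 differed at least 4-fold. The list's median log2 difference was -4.91, or -4.74 with Cldn8, which had no count in T12, set at its bound, beside 0.00 for all genes tested. Among the claudins that seal tight junctions, Cldn4 was at 0.360, 0.227 and 0.0108 CPM in T12 and 278, 453, 133.5, 142 and 211 CPM in 4T1 (log2 -10.27, adjusted p = 1.5e-17). The 4T1 mean of Cldn4 was the highest of the 13 models. Cldn3 (0.0325 to 0.204 CPM in T12 and 39.6 to 91.2 CPM in 4T1) and Cldn7 (0.0650 to 0.180 CPM in T12 and 21.4 to 57.6 CPM in 4T1) were also called higher in 4T1, at log2 -9.34 and -8.22. Ocln, for occludin, was at 0.0480, 0 and 0.0108 CPM in T12 against 9.64 to 17.7 CPM in 4T1 (log2 -9.06, adjusted p = 2.4e-25). The scaffold gene Tjp1, which many cell types use, differed far less, at log2 -0.90. T12 had the lowest mean of all 13 models for 12 of the 20 junction genes.

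The exception was Cldn1, a claudin of skin and other stratified epithelia. It was at 27.9, 21.2 and 27.3 CPM in T12 and only 0.307, 0.434, 0.725, 0.495 and 0.594 CPM in 4T1 (log2 difference 5.64, standard error 0.40, adjusted p = 2.5e-20). Here 4T1 had the lowest mean of the 13 models, so each of the models lacked claudins that the other expressed. Tjp3, the remaining member, was not called (1.14 to 1.64 CPM in T12 and 1.41 to 2.35 CPM in 4T1).

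**Figure D1:**
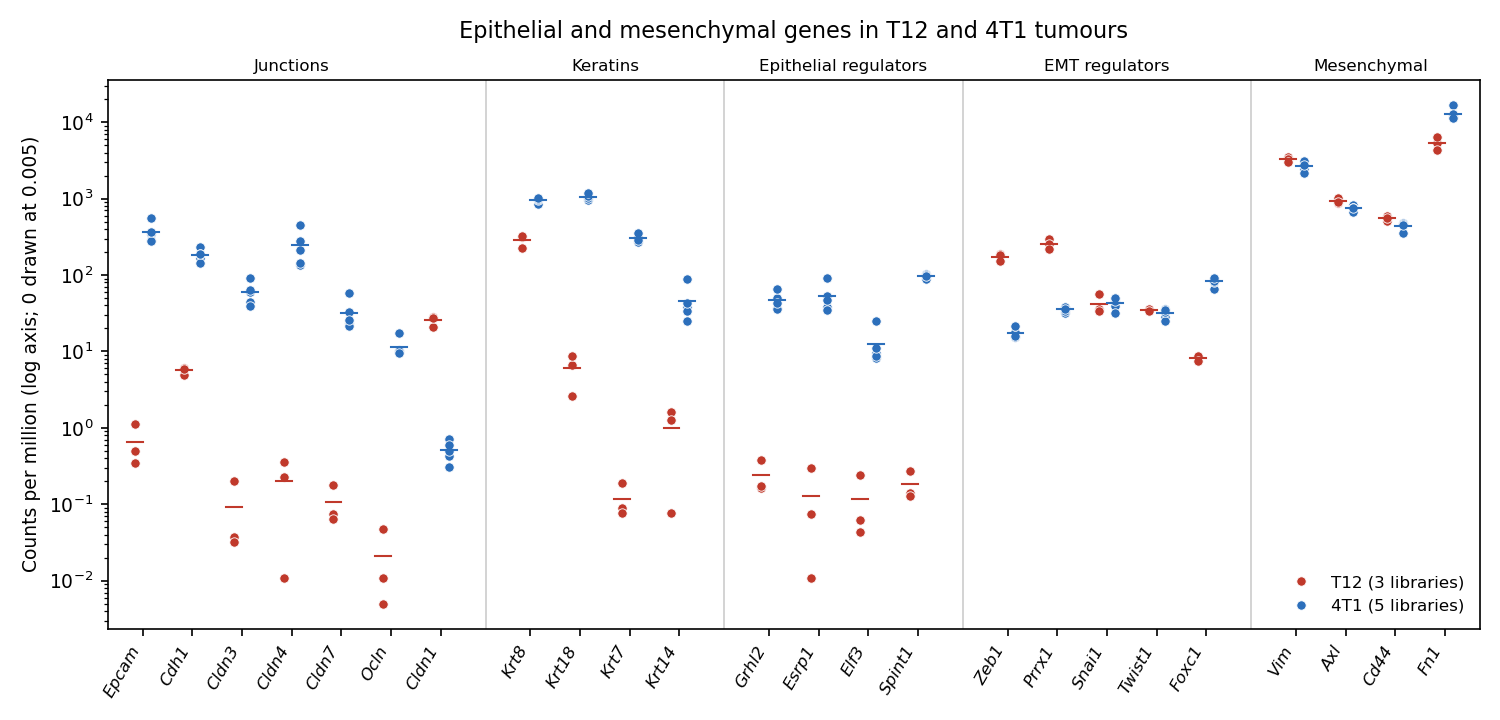
CPM on a log axis for 24 genes of 5 groups. Each point is a library, red for T12 (n = 3) and blue for 4T1 (n = 5), and short lines are group means. For Epcam the T12 points end at 1.13 CPM and the 4T1 points start at 278 CPM, while the points of Vim, Snai1 and Twist1 overlap.

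ZEB and SNAI proteins are known to bind the E-box CAGGTG, which reads CACCTG on the other strand, and the promoters of the junction genes are shown for that reason. In the 250 bases before each annotated start in the RefSeq promoter table (build GRCm38.p6), searched on both strands, 14 of the 20 junction genes had an entry and 9 of those held at least 1 match. Of 27025 genes in the table, 5252 (19.4%) did. A gene counted if any of its annotated starts had a match, so genes with more starts had more chances. The 14 junction genes had 21 starts and the 27025 genes had 32851, of which 17.2% held a match. Among the epithelial regulators described below, 7 of 13 genes with an entry held a match, among the mesenchymal genes 1 of 11, among the neutrophil genes 8 of 22 and among the macrophage genes 3 of 15. In the junction and epithelial regulator lists 9 promoters held 2 or more matches. Printed are 5 of these, chosen after the genes' values were seen, for Epcam (chr17:87635729-87635978 on the plus strand), Cldn7 (chr11:69965171-69965420 on the plus strand), Ocln (chr13:100552499-100552748 on the minus strand), Crb3 (chr17:57061951-57062200 on the plus strand), a cell polarity gene, and Ap1m2 (chr9:21312334-21312583 on the minus strand), which encodes a subunit of an epithelial sorting adaptor. Each is given from 5′ to 3′ on the gene's strand, with the matches in capitals.
Epcam: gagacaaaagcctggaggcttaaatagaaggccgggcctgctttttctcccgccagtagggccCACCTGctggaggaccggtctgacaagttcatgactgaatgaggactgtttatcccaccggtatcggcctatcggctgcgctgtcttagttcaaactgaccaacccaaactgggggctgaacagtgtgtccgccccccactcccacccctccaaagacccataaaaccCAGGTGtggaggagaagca
Cldn7: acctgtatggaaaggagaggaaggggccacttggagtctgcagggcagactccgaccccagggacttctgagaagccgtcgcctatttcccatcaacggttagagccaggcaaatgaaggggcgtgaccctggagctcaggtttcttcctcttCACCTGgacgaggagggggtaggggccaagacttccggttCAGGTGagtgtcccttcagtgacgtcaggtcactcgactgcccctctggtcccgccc
Ocln: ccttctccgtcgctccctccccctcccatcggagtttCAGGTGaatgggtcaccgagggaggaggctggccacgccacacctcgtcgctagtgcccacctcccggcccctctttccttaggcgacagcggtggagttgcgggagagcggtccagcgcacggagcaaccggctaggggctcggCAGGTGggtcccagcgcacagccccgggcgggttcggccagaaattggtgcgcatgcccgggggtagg
Crb3: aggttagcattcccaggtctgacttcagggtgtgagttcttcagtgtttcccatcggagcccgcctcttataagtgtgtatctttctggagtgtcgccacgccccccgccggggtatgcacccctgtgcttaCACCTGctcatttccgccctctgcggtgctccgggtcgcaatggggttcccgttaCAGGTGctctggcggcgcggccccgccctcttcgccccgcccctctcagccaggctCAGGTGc
Ap1m2: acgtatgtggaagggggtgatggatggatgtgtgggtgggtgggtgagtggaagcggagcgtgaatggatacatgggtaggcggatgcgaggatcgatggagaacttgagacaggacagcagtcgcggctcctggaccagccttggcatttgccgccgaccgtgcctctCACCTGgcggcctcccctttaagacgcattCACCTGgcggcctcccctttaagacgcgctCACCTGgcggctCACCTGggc
The other 4 promoters with 2 or more matches were those of Pard6b, Elf5, Spint2 and Rab25. Of the genes shown, Crb3 was at 0 to 0.0360 CPM in T12 and 0.571 to 3.08 CPM in 4T1 (log2 -6.10, adjusted p = 5.5e-13), and Ap1m2 at 0.0325 to 0.216 CPM in T12 and 2.54 to 24.4 CPM in 4T1 (log2 -6.43, adjusted p = 1.4e-17). Cldn3 and Cgn, called at log2 -9.34 and -6.23, had an entry without a match. A match is a description of these letters, and binding was not measured.

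Desmosome and keratin genes followed the junctions in part. Of 12 desmosome genes, 7 were called higher in 4T1 and 1 higher in T12. Dsp, for desmoplakin, was at 0.0867 to 0.648 CPM in T12 and 79.7 to 123 CPM in 4T1 (log2 -8.10, adjusted p = 3.8e-15), and Dsg2, a desmosomal cadherin, at 0.0542 to 0.168 CPM in T12 and 34.6 to 90.2 CPM in 4T1 (log2 -8.71, adjusted p = 2.8e-27). Ppl, for periplakin, was at 1.78 to 3.72 CPM in T12 and 97.8 to 151 CPM in 4T1 (log2 -5.40, adjusted p = 2.4e-15), and 4T1 had the highest mean of the 13 models. Pkp2, a plakophilin that hearts also use, went the other way, with 53.2, 47.3 and 51.2 CPM in T12 and 9.52, 15.5, 12.4, 12.4 and 14.02 CPM in 4T1 (log2 1.99, adjusted p = 8.9e-12).

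Of 14 keratins, 8 were called higher in 4T1 and 1 higher in T12. The latter, Krt6a, stayed under 1 CPM, overlapped between the models and lost its call without T12 replicate 1 or 2 or 4T1 replicate 1 or 5. Krt18 and Krt8, the partner keratins of simple epithelium, differed from 4T1 to unequal extents. Krt18 was at 6.65, 2.58 and 8.82 CPM in T12 and 969.9, 1048, 1012, 1085 and 1190.4 CPM in 4T1 (log2 difference -7.46, standard error 0.54, adjusted p = 5.8e-20). Krt8 was still at 311, 226 and 323 CPM in T12, against 965, 845, 954, 993 and 1029 CPM in 4T1 (log2 difference -1.74, standard error 0.32, adjusted p = 8.8e-06). Per kilobase of exon, T12 thus had 146 CPM of Krt8 and 4.19 of Krt18, while 4T1 had 489 and 738. Krt7 was at 0.0759 to 0.192 CPM in T12 and 270.0 to 350.1 CPM in 4T1 (log2 -11.32, adjusted p = 1.5e-17), Krt19 at 0.0759 to 0.277 CPM in T12 and 20.4 to 32.1 CPM in 4T1 (log2 -7.38, adjusted p = 4.0e-05), and the basal keratin Krt14 at 0.0759 to 1.63 CPM in T12 and 25.3 to 88.4 CPM in 4T1 (log2 -5.53, adjusted p = 1.3e-04). Krt5 was low in both (0 to 1.03 CPM in T12 and 0 to 2.62 CPM in 4T1) and not called.

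The regulators of epithelial identity were also lower in T12. Of 24 tested, 20 were called higher in 4T1 and none higher in T12, 18 of them at least 4-fold, with a median log2 difference of -6.02. For 20 of the 24, T12 had the lowest mean of the 13 models. Grhl2, a transcription factor that maintains epithelia, was at 0.384, 0.164 and 0.173 CPM in T12 and 49.9, 65.3, 37.4, 36.0 and 43.6 CPM in 4T1 (log2 difference -7.58, standard error 0.36, adjusted p = 5.4e-30). Esrp1, the epithelial splicing regulator, was at 0.0108 to 0.300 CPM in T12 and 34.5 to 90.0 CPM in 4T1 (log2 -8.68, adjusted p = 3.4e-22). Elf3, an epithelial ETS factor, was at 0.0434 to 0.240 CPM in T12 and 8.23 to 24.9 CPM in 4T1 (log2 -6.75, adjusted p = 8.1e-18).

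The membrane proteases and their inhibitors followed. Spint1, an inhibitor of matriptase and of the activator of hepatocyte growth factor, was at 0.276, 0.139 and 0.130 CPM in T12 and 103, 100.01, 90.6, 88.3 and 98.5 CPM in 4T1 (log2 difference -9.04, standard error 0.31, adjusted p = 2.9e-38). Prss8, for the protease prostasin, was at 0.0378 to 0.204 CPM in T12 and 25.5 to 33.2 CPM in 4T1 (log2 -8.26, adjusted p = 2.6e-23). Foxa1, a luminal factor, was low in both models but still higher in 4T1 (0.0126 to 0.0434 CPM in T12 and 0.691 to 2.75 CPM in 4T1; log2 -5.58, adjusted p = 2.4e-04). Ehf, an ETS factor, was at 0.0759 to 0.852 CPM in T12 and 0.0192 to 0.647 CPM in 4T1 and was not called. It was called higher in T12 without T12 replicate 3 or without 4T1 replicate 4, and its difference was negative without T12 replicate 1.

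Genes that define mesenchymal cells differed in both directions. Of 20 tested, 5 were called higher in T12 and 4 higher in 4T1, beside 15.4% and 17.1% of all genes, with a median log2 difference of -0.02. The groups were fully separate for 7 with T12 above and for 9 with 4T1 above, beside 25.6% and 26% of all genes. The 8-library fit called 8 higher in T12 and 9 higher in 4T1, beside 31.3% and 30.3% of all genes, and DESeq2 and limma gave the same counts. Vim, for the filament vimentin, was at 3508, 3342 and 3045 CPM in T12 and 2458, 2132, 2821, 3074 and 2780.0 CPM in 4T1 (log2 difference 0.31, standard error 0.35, adjusted p = 0.55), and the groups overlapped. Axl, a receptor kinase of mesenchymal cells (874 to 1006 CPM in T12 and 668 to 823 CPM in 4T1), Cd44 (509 to 588 CPM in T12 and 357 to 482 CPM in 4T1) and Fn1, for fibronectin (4344 to 6362 CPM in T12 and 11382 to 16854 CPM in 4T1), were also not called, with adjusted p of 0.51, 0.39 and 0.14. Each of these 3 was called in the fit of the 8 libraries alone, Axl and Cd44 higher in T12 and Fn1 higher in 4T1. Cdh2, for N-cadherin, was low in both (0.432 to 1.17 CPM in T12 and 1.17 to 1.66 CPM in 4T1).

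Particular mesenchymal genes did differ. Itga5, the fibronectin receptor subunit, was at 526 to 636 CPM in T12 and 99.2 to 128 CPM in 4T1 (log2 2.40, adjusted p = 1.6e-07), Tpm2, a tropomyosin, at 251 to 291 CPM in T12 and 18.8 to 41.7 CPM in 4T1 (log2 3.07, adjusted p = 0.0018), and Ncam1, a neural adhesion molecule, at 42.0 to 48.0 CPM in T12 and 4.65 to 8.79 CPM in 4T1 (log2 2.88, adjusted p = 3.8e-04). These were higher in T12. Cdh11, a cadherin of mesenchyme, was at 3.31 to 9.54 CPM in T12 and 21.1 to 48.5 CPM in 4T1 (log2 -2.39, adjusted p = 0.023), Thy1 at 27.4 to 57.9 CPM in T12 and 114 to 179 CPM in 4T1 (log2 -1.75, adjusted p = 0.0058) and Tagln, for transgelin, at 15.5 to 43.1 CPM in T12 and 54.4 to 109 CPM in 4T1 (log2 -1.74, adjusted p = 0.0096). Those were higher in 4T1, and the calls of Cdh11 and Tagln were lost without T12 replicate 1 or without T12 replicate 3, that of Thy1 without T12 replicate 1. No mesenchymal gene was called higher in 4T1 without T12 replicate 1, 1 without T12 replicate 3 and 2 without 4T1 replicates 1 and 3.

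Factors that drive epithelial-mesenchymal transition (EMT) differed in both directions. Of 18 tested, 3 were called higher in T12, a share near the 15.4% of all genes, 7 were called higher in 4T1, and 8 were not called. The 8-library fit, DESeq2 and limma each called 5 higher in T12. Zeb1, the E-box repressor of Cdh1, was at 188, 182 and 154 CPM in T12 and 18.1, 21.3, 15.3, 15.4 and 15.9 CPM in 4T1 (log2 difference 3.34, standard error 0.39, adjusted p = 3.1e-11). Prrx1, a homeobox factor of mesenchyme, was at 296, 255 and 217 CPM in T12 and 32.1, 37.8, 38.5, 33.4 and 35.5 CPM in 4T1 (log2 difference 2.85, standard error 0.49, adjusted p = 1.9e-06). No T12 library overlapped a 4T1 library for either gene, and T12 had the highest mean of the 13 models for both. Snai1 (33.5 to 56.7 CPM in T12 and 32.2 to 50.7 CPM in 4T1; adjusted p = 0.98) and Twist1 (33.9 to 36.4 CPM in T12 and 25.04 to 35.9 CPM in 4T1; adjusted p = 0.83) overlapped and were not called.

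Zeb2 was at 155 to 163 CPM in T12 and 74.2 to 104 CPM in 4T1 and not called (adjusted p = 0.17), although its groups were separate and the 8-library fit called it. Snai2 was higher in T12 (4.38 to 7.996 CPM in T12 and 1.98 to 3.98 CPM in 4T1; log2 1.15, adjusted p = 0.045), a call lost without T12 replicate 1 or 2, or without 4T1 replicate 1, 2 or 4. 4T1 had more Foxc1, a forkhead factor (7.49 to 8.70 CPM in T12 and 65.0 to 92.7 CPM in 4T1; log2 -3.32, adjusted p = 1.9e-13), more Twist2 (0.317 to 1.71 CPM in T12 and 7.51 to 10.6 CPM in 4T1; log2 -3.34, adjusted p = 0.0040) and more Tgfb3, a TGF-beta ligand (30.2 to 47.5 CPM in T12 and 152 to 191 CPM in 4T1; log2 -2.14, adjusted p = 1.3e-08). Vim, Snai1 and Twist1 were thus expressed in both models without a call, while Zeb1, Prrx1, Foxc1 and Twist2 differed and Cdh2 was low in both. The lack of a call does not show that the tumour cells of either model are mesenchymal. Which cells held these transcripts was not measured. The working description of both models as mesenchymal did not hold for the epithelial genes of 4T1. That model had 278 to 558 CPM of Epcam and 969.9 to 1190.4 CPM of Krt18 beside 2132 to 3074 CPM of Vim.

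Of 24 matrix genes, 4 were called higher in 4T1 in the 82-library fit, a share near the 17.1% of all genes. None was called higher in T12, beside 15.4% of all genes. In the 8-library fit 4 were called higher in T12 and 11 higher in 4T1, beside 31.3% and 30.3% of all genes. Among the 4 called higher in 4T1 over 82 libraries were Lamb3 and Lama3, for laminin chains of epithelial basement membranes. Lamb3 was at 0.468, 0.264 and 0.336 CPM in T12 and 54.4, 55.8, 38.7, 24.4 and 39.9 CPM in 4T1 (log2 difference -6.89, standard error 0.63, adjusted p = 5.0e-15), with no overlap. Lama3 (1.46 to 2.49 CPM in T12 and 11.5 to 27.4 CPM in 4T1; log2 -3.46, adjusted p = 4.7e-05) showed the same direction. Another of them was Col7a1, for the anchoring-fibril collagen (171 to 239.5 CPM in T12 and 519.9 to 695 CPM in 4T1; log2 -1.65, adjusted p = 0.0081). The fibrillar collagens Col1a1 (564 to 1215 CPM in T12 and 1849 to 2845 CPM in 4T1) and Col3a1 (317 to 1409 CPM in T12 and 1143 to 2519.7 CPM in 4T1) and Sparc (569 to 1149 CPM in T12 and 1315 to 1710.0 CPM in 4T1) were not called, and within T12 Col3a1 ranged from 317 to 1409 CPM.

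Among 20 matrix proteases and inhibitors 4 were called in each direction, near the 15.4% and 17.1% of all genes. The count higher in T12 was 2 without T12 replicate 1, without 4T1 replicate 5 or without 4T1 replicates 1 and 3, and DESeq2 and limma called 7 higher in 4T1. Timp3, a metalloprotease inhibitor (253 to 371 CPM in T12 and 26.5 to 47.2 CPM in 4T1; log2 3.18, adjusted p = 9.4e-09), and Plat, for tissue plasminogen activator (127 to 157 CPM in T12 and 29.1 to 37.5 CPM in 4T1; log2 2.06, adjusted p = 3.2e-05), were higher in T12. Adamts1 was also called higher in T12 (58.8 to 91.7 CPM in T12 and 21.1 to 45.8 CPM in 4T1; log2 1.35, adjusted p = 0.025), a call lost without T12 replicate 1 or 2 or 4T1 replicate 4 or 5. Mmp11, for stromelysin-3 (14.8 to 18.6 CPM in T12 and 63.1 to 82.2 CPM in 4T1; log2 -2.14, adjusted p = 6.1e-05), Mmp9, a gelatinase (5.86 to 7.42 CPM in T12 and 114 to 263 CPM in 4T1; log2 -4.79, adjusted p = 8.5e-05), and Mmp10 (0.541 to 7.28 CPM in T12 and 5.49 to 48.8 CPM in 4T1; log2 -3.06, adjusted p = 0.015) were higher in 4T1. The Mmp10 call was lost without T12 replicate 1 or 3.

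**Figure D2:**
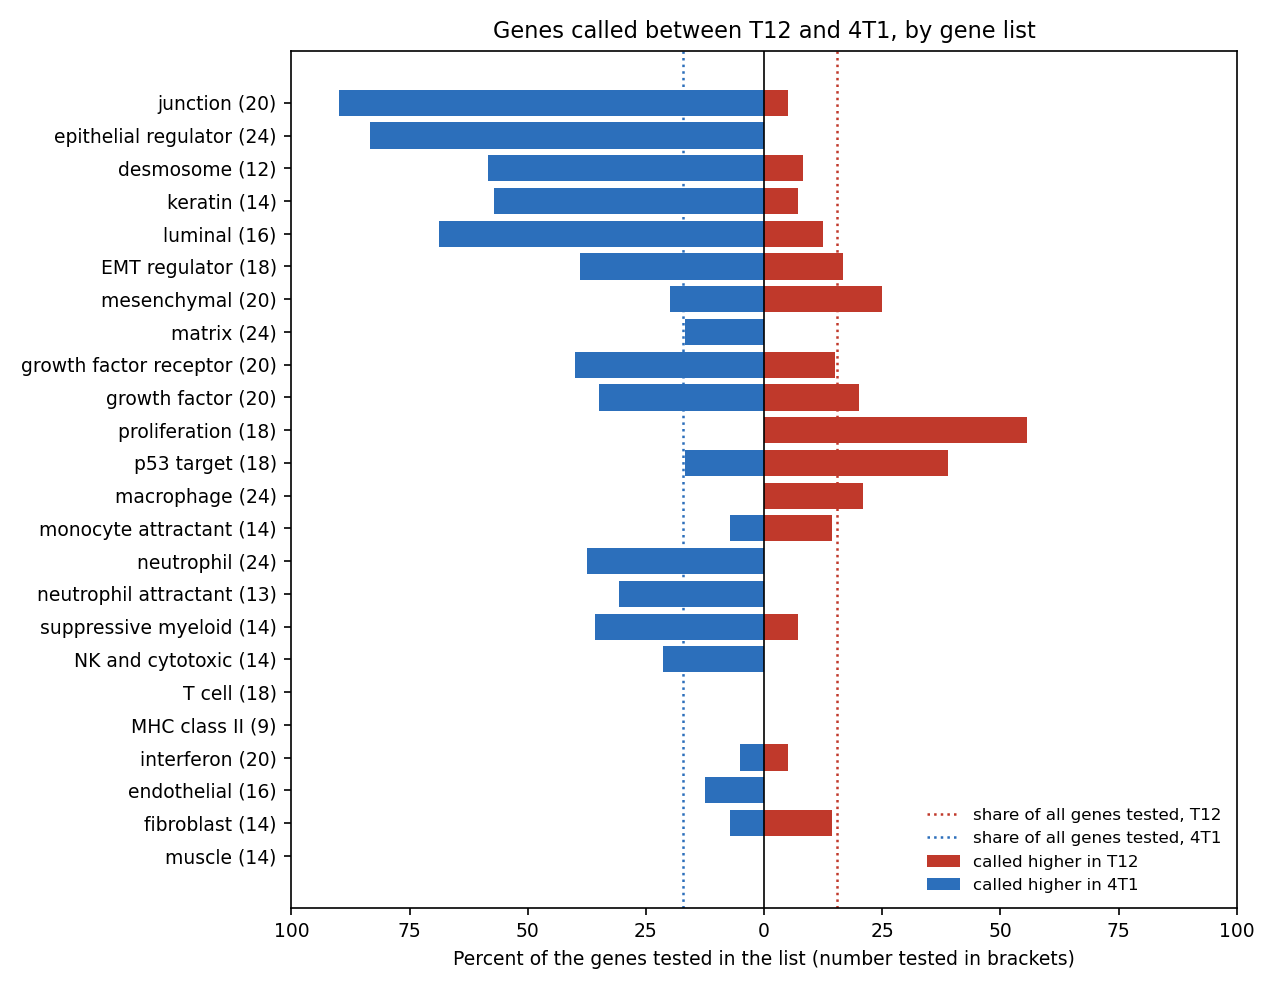
Percent of the genes tested in each list that were called higher in T12 (red, to the right) or higher in 4T1 (blue, to the left), with the number tested in brackets. Dotted lines mark the shares of all genes tested, 15.4% and 17.1%. Junction and epithelial regulator genes lie on the 4T1 side, proliferation genes on the T12 side, and mesenchymal genes on both.

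Receptor kinases were called in both directions, with 1 receptor far above the rest. Met, the receptor of hepatocyte growth factor, was at 10388, 8079 and 10080.1 CPM in T12 and 75.9, 71.6, 71.3, 66.3 and 58.4 CPM in 4T1 (log2 difference 7.11, standard error 0.31, adjusted p = 1.6e-31). This is a 139-fold difference, and T12 had the highest Met mean of the 13 models, with model 2208 next at 4420.0 CPM. Its ligand Hgf was low in both (3.36 to 4.90 CPM in T12 and 1.51 to 3.71 CPM in 4T1) and not called. Egfr (33.0 to 37.2 CPM in T12 and 13.4 to 17.4 CPM in 4T1; log2 1.14, adjusted p = 0.0026) and Fgfr1 (205 to 326 CPM in T12 and 81.1 to 123 CPM in 4T1; log2 1.45, adjusted p = 1.6e-05) were also higher in T12. Against only the 4T1 replicates 1 and 2 the Egfr call was lost.

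Of 20 receptors tested, 3 were called higher in T12 and 8 higher in 4T1, beside 15.4% and 17.1% of all genes. Fgfr2, whose splice forms mark epithelium and mesenchyme, was at 0.144, 0.0252 and 0.0650 CPM in T12 and 109.6, 125, 61.2, 42.6 and 56.0 CPM in 4T1 (log2 difference -9.94, standard error 0.77, adjusted p = 2.1e-18). Fgfr3 followed at 0.239 to 0.444 CPM in T12 and 3.36 to 4.67 CPM in 4T1 (log2 -3.61, adjusted p = 3.1e-06). The ERBB receptors Erbb3 (2.18 to 2.44 CPM in T12 and 11.8 to 39.7 CPM in 4T1; log2 -3.12, adjusted p = 1.5e-14) and Erbb2 (22.4 to 24.2 CPM in T12 and 68.8 to 111 CPM in 4T1; log2 -1.84, adjusted p = 3.8e-11) were higher in 4T1, and T12 had the lowest mean of the 13 models for both. Pdgfra (48.4 to 111 CPM in T12 and 127 to 166 CPM in 4T1) and Pdgfrb (68.9 to 147 CPM in T12 and 76.2 to 113 CPM in 4T1) were not called.

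Each model expressed different ligands of the EGF receptor family. Btc, for betacellulin, was at 21.1, 17.2 and 17.4 CPM in T12 and 0.451, 1.04, 0.421, 0.444 and 0.378 CPM in 4T1 (log2 difference 5.08, standard error 0.45, adjusted p = 7.9e-16). Ereg, for epiregulin (14.1 to 25.4 CPM in T12 and 0.645 to 1.59 CPM in 4T1; log2 4.14, adjusted p = 2.7e-06), and Egf (1.39 to 1.76 CPM in T12 and 0.423 to 0.807 CPM in 4T1; log2 1.51, adjusted p = 0.020) were also higher in T12, the latter not without T12 replicate 1. Tgfa was at 1.87, 1.73 and 2.93 CPM in T12 and 142, 112, 111, 104 and 111 CPM in 4T1 (log2 difference -5.73, standard error 0.51, adjusted p = 1.6e-15). Other growth factors that were higher in 4T1 were Pdgfc (18.0 to 28.3 CPM in T12 and 145 to 234 CPM in 4T1; log2 -3.07, adjusted p = 9.3e-14) and Igf2 (0.0240 to 0.152 CPM in T12 and 0.774 to 3.13 CPM in 4T1; log2 -4.50, adjusted p = 0.0022), the latter at a low level. In all, 4 of 20 growth factors were called higher in T12 and 7 higher in 4T1, beside 15.4% and 17.1% of all genes. The latter count fell to 4 without T12 replicate 3 and the former to 2 without T12 replicate 1.

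Most of the genes next to Met on chromosome 6 were also higher in T12. Met lies at chr6:17463800-17573980 on the plus strand (mm10, GENCODE M21). Of the 11 other genes tested in its neighbourhood, from Foxp2 to Cttnbp2, 8 were called higher in T12 and none higher in 4T1, with a median log2 difference of 2.66. Without Met their summed level was 6680.2 to 7671 CPM in T12 and 488 to 538 CPM in 4T1. Capza2, for an actin capping subunit, was at 4744, 4087 and 4307 CPM in T12 and 181, 164, 172, 162 and 159 CPM in 4T1 (log2 difference 4.71, standard error 0.15, adjusted p = 2.6e-40). Cav1, for caveolin, was at 1209 to 1601 CPM in T12 and 63.0 to 75.6 CPM in 4T1 (log2 4.36, adjusted p = 3.6e-14), and St7 at 448 to 477 CPM in T12 and 11.4 to 13.2 CPM in 4T1 (log2 5.27, adjusted p = 6.9e-42). Foxp2, a transcription factor best known from brain, was at 6.02 to 7.41 CPM in T12 and 0.0540 to 0.222 CPM in 4T1 (log2 5.53, adjusted p = 2.3e-07). Cftr, the chloride channel, had 3 counts over the 5 4T1 libraries and 13.99 to 28.5 CPM in T12, a ratio of 3625 (95% counting interval 1239.9 to 17585). Tfec, Wnt2 and Cttnbp2 lie among these genes and were not called, with log2 differences of 0.23, -0.36 and -1.32. Cttnbp2 was called higher in 4T1 without 4T1 replicate 4 or without T12 replicate 2.

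The genes of a wider window, from Asns to Ahcyl2 (chr6:7675169-29912310), were examined after their values had been seen. The window begins and ends at genes higher in T12, so its excess was partly set by how it was drawn. Of 55 genes tested there with a mean of at least 5 CPM in 1 of the models, 23 were at least 4-fold higher in T12 and none higher in 4T1, against 343 and 619 of 11604 such genes on all chromosomes. The count for all chromosomes includes the window. On the rest of chromosome 6 the counts were 18 higher in T12 and 30 higher in 4T1, of 529 such genes. The median log2 difference was 1.42 for the 55 and 0.22 for the 529. Asns, for asparagine synthetase, was at 1232, 1242 and 986 CPM in T12 and 20.4, 25.2, 24.4, 24.0 and 26.3 CPM in 4T1 (log2 difference 5.58, standard error 0.30, adjusted p = 1.9e-26). Umad1 (841 to 1028 CPM in T12 and 11.5 to 13.2 CPM in 4T1; log2 6.20, adjusted p = 1.7e-42), Glcci1 (341 to 453 CPM in T12 and 0.752 to 1.52 CPM in 4T1; log2 8.48, adjusted p = 9.2e-23) and Pot1a, for a telomere-binding protein (225 to 266 CPM in T12 and 12.9 to 18.6 CPM in 4T1; log2 4.07, adjusted p = 6.4e-26), were higher in T12 as well. Near the far end, the filamin gene Flnc (1146 to 1438 CPM in T12 and 56.4 to 98.5 CPM in 4T1; log2 3.98, adjusted p = 0.0019), the reticulum protein gene Calu (3937 to 4899.7 CPM in T12 and 541 to 661 CPM in 4T1; log2 2.94, adjusted p = 1.0e-26), the import receptor gene Tnpo3 (522 to 605 CPM in T12 and 98.4 to 106 CPM in 4T1; log2 2.51, adjusted p = 7.1e-29) and Smo, the Hedgehog signal transducer (719.8 to 794 CPM in T12 and 135 to 179 CPM in 4T1; log2 2.29, adjusted p = 2.5e-15), were higher in T12.

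Not every gene in the window was higher in T12. C1galt1 (log2 -0.27), Phf14 (-0.13) and Fam3c (0.17) lie between genes of the window that were called and were not called, and Ica1 was slightly higher in 4T1 (log2 -0.60, adjusted p = 0.024), a call lost without T12 replicate 1 or 2. DNA copy number was not measured in these libraries.

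**Figure D3:**
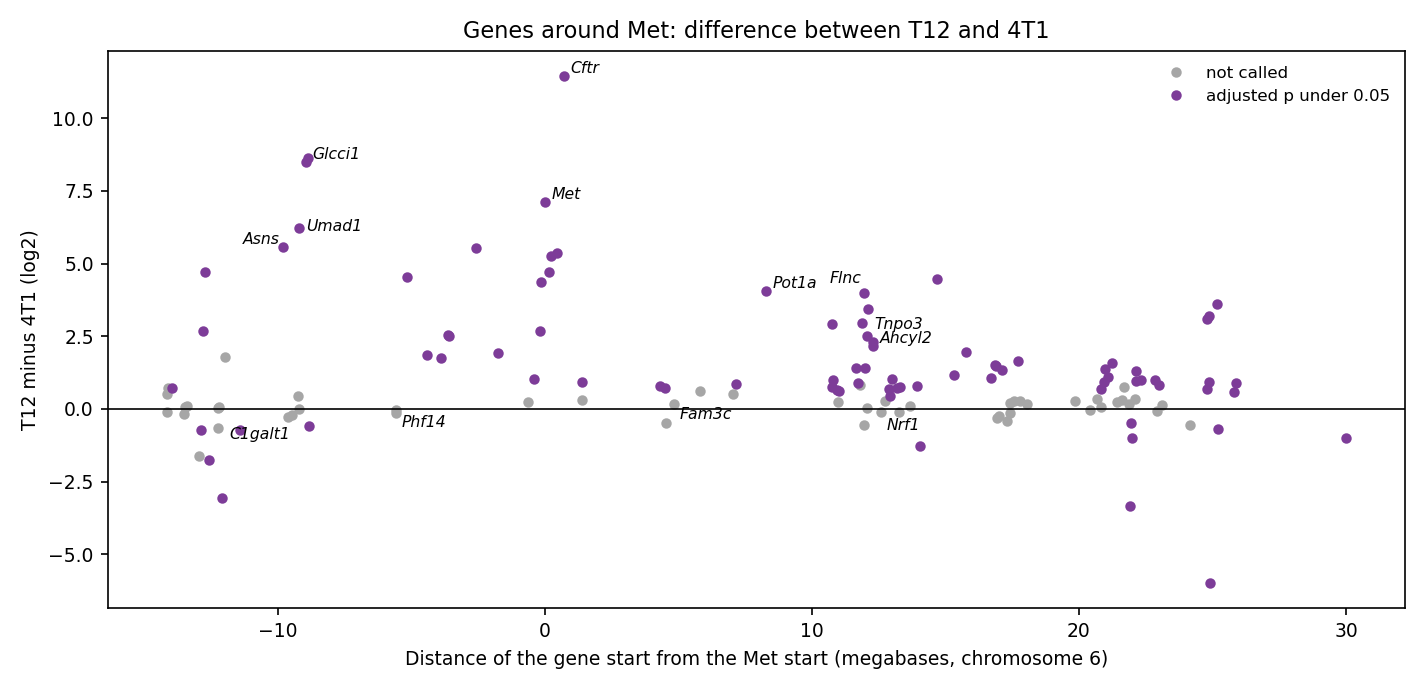
Log2 difference T12 minus 4T1 for genes with a mean of at least 5 CPM in 1 of the models, against the distance of each gene's start from the start of Met in megabases. Purple points passed an adjusted p of 0.05 and grey points did not. Met lies at log2 7.11 and Glcci1 at 8.48, with genes near 0 such as Phf14 and Fam3c between the raised groups.

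Cell cycle and p53 pathway genes differed too. Cdkn2a, which encodes the inhibitors p16Ink4a and p19Arf, was at 205, 191 and 196 CPM in T12 and 0.336, 0.250, 0.269, 0.267 and 0.252 CPM in 4T1 (log2 difference 9.48, standard error 0.63, adjusted p = 8.6e-22). It lies at chr4:89274471-89294653, and T12 ranked 1 and 4T1 ranked 12 by mean among the 13 models. The next gene Cdkn2b, for p15Ink4b, was at 25.6 to 26.6 CPM in T12 and 0.675 to 1.47 CPM in 4T1 (log2 4.61, adjusted p = 1.4e-13). Mtap, a methylthioadenosine-recycling enzyme gene on the other side, went the opposite way, with 103 to 111 CPM in T12 and 607 to 759.7 CPM in 4T1 (log2 -2.62, adjusted p = 2.5e-18). Counts do not separate the transcripts of both Cdkn2a products.

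Trp53 itself was at 71.5 to 88.8 CPM in T12 and 64.2 to 74.3 CPM in 4T1 and not called (log2 0.20, adjusted p = 0.59). Of 18 known p53 target genes, 7 were called higher in T12 and 3 higher in 4T1, beside 15.4% and 17.1% of all genes. The latter count was 2 when any single library was left out, without the filter, and with size factors in place of TMM. Eda2r, a TNF receptor family gene (19.3 to 28.1 CPM in T12 and 0.378 to 1.08 CPM in 4T1; log2 5.31, adjusted p = 3.6e-09), Gdf15, a stress cytokine (5.68 to 12.7 CPM in T12 and 0.480 to 0.937 CPM in 4T1; log2 3.77, adjusted p = 5.3e-08), and Sesn2 (29.2 to 42.0 CPM in T12 and 8.80 to 10.7 CPM in 4T1; log2 1.92, adjusted p = 2.2e-12) were higher in T12, of which Gdf15 and Sesn2 are also targets of other stress pathways. Ei24 (49.1 to 54.9 CPM in T12 and 137 to 151 CPM in 4T1; log2 -1.45, adjusted p = 1.6e-16) and Tnfrsf10b, a death receptor gene (17.6 to 18.7 CPM in T12 and 29.7 to 34.5 CPM in 4T1; log2 -0.87, adjusted p = 3.4e-06), were higher in 4T1. Cdkn1a, for p21, was at 29.7 to 44.6 CPM in T12 and 29.1 to 37.6 CPM in 4T1 and not called.

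Proliferation genes were higher in T12, with 10 of 18 called and none higher in 4T1, all under 4-fold. Without T12 replicate 3 the count was 5, and against 4T1 replicates 3 to 5 only it was 6. By mean among the 13 models, T12 was highest for none of the 18 genes and 4T1 was lowest for 7. Mki67 was at 458, 326 and 556 CPM in T12 and 195, 155, 233, 233 and 210.4 CPM in 4T1 (log2 difference 1.12, standard error 0.28, adjusted p = 8.8e-04). The spindle checkpoint kinases Bub1 (42.0 to 62.0 CPM in T12 and 16.6 to 24.5 CPM in 4T1; log2 1.31, adjusted p = 3.2e-05) and Bub1b (62.3 to 90.1 CPM in T12 and 30.3 to 42.7 CPM in 4T1; log2 1.04, adjusted p = 2.2e-04) were also called. Of 18 hypoxia and glycolysis genes 2 were called higher in 4T1 and none higher in T12, beside 17.1% and 15.4% of all genes. The 8-library fit and limma each called 7 higher in 4T1 and 2 higher in T12, and DESeq2 called 9 and 2. Car9, for a carbonic anhydrase that hypoxia induces, was at 7.05 to 18.0 CPM in T12 and 75.1 to 154 CPM in 4T1 (log2 -3.14, adjusted p = 9.0e-04), and Egln3, for an oxygen-sensing hydroxylase, at 33.0 to 50.8 CPM in T12 and 137 to 180.4 CPM in 4T1 (log2 -1.90, adjusted p = 0.023). The Egln3 call was lost without any 1 of the T12 libraries.

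The largest differences were of genes that 1 of the models hardly expressed. In T12 they included developmental transcription factors. Onecut2, a factor of liver and nerve development, was at 106, 78.1 and 106 CPM in T12 and had 3 counts over the 5 4T1 libraries, a ratio of 15777 (95% counting interval 5398 to 76508). Sox2, a pluripotency and neural factor, was at 23.2, 16.3 and 16.03 CPM and had 1 count over the 5 4T1 libraries, a ratio of 8993 (95% counting interval 1613 to 355262). Sp8, a limb and brain factor, had no count in 4T1 and 5.04 to 6.00 CPM in T12, at least 919-fold higher against a floor of 3 counts over the group.

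Others were genes of nerve cells. Gap43, a growth cone protein gene, was at 94.8, 59.4 and 86.2 CPM in T12 and 0.0185 to 0.0630 CPM in 4T1 (log2 11.02, adjusted p = 8.2e-15). Rgs17, a regulator of G protein signalling (44.7 to 58.9 CPM in T12 and 0.0180 to 0.0864 CPM in 4T1; log2 10.10, adjusted p = 2.8e-16), and Ptchd1, a patched-domain gene (19.8 to 29.9 CPM in T12 and 0 to 0.0576 CPM in 4T1; log2 10.26, adjusted p = 3.7e-14), followed. Adcy8, a calcium-activated adenylyl cyclase, was at 32.5 to 44.5 CPM in T12, 6499.9 (95% counting interval 2224 to 31524) times 4T1, and Gpr149, an orphan receptor with no count in 4T1, was at least 3119-fold higher. T12 had the highest mean of the 13 models for Onecut2, Gpr149, Sox2, Sp8, Gap43, Ptchd1 and Rgs17.

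In 4T1 the largest differences were mostly of epithelial, signalling and bone genes. Krt7, given above, and Padi4, described with the neutrophil genes below, were among them. Wnt7b, a Wnt ligand, was at 0.144, 0.113 and 0.108 CPM in T12 and 380.2, 202, 325, 389 and 330.1 CPM in 4T1 (log2 difference -11.36, standard error 0.89, adjusted p = 5.3e-18). Gpa33, a cell surface antigen of gut epithelium, was at 0.0120 to 0.0542 CPM in T12 and 166 to 215 CPM in 4T1 (log2 -12.46, adjusted p = 5.4e-15), and 4T1 had the highest mean of the 13 models for both. Ibsp, for bone sialoprotein, had 1 count over the 3 T12 libraries and 10.2 to 29.0 CPM in 4T1, a ratio of 5171 (95% counting interval 928 to 204253).

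Tmprss11e, a membrane serine protease gene, was at 92.7 to 147 CPM in 4T1, 9889.5 (95% counting interval 3384 to 47957) times T12. Cldn2, a claudin of leaky epithelia, was at 12.5 to 17.3 CPM in 4T1 and had 1 count over the T12 libraries, a ratio of 4007 (95% counting interval 719 to 158301). Msmp, a chemokine-like secreted protein gene, had no count in T12 and 46.6, 8.76, 27.1, 33.5 and 18.9 CPM in 4T1, at least 2239-fold higher against the floor. Phlda2, an imprinted placental growth gene, and B4galnt3, a glycosyltransferase gene, also had no count in T12 and were at least 914-fold and at least 725-fold higher in 4T1.

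Macrophage genes were present at high levels in both models, and 5 of 24 were called higher in T12 and none higher in 4T1. The share is near the 15.4% of all genes called in that direction. Adgre1, for the F4/80 antigen, was at 154, 146 and 187 CPM in T12 and 64.9, 47.5, 53.8, 31.9 and 49.5 CPM in 4T1 (log2 difference 1.71, standard error 0.57, adjusted p = 0.015). Ms4a7 was at 98.03, 115 and 119.8 CPM in T12 and 24.2, 25.5, 26.7, 15.5 and 24.5 CPM in 4T1 (log2 difference 2.25, standard error 0.59, adjusted p = 0.0015). Siglec1, the sialoadhesin of tissue macrophages (176 to 246 CPM in T12 and 34.6 to 76.3 CPM in 4T1; log2 1.94, adjusted p = 0.023), Vsig4, a complement receptor (4.86 to 8.62 CPM in T12 and 0.213 to 1.57 CPM in 4T1; log2 2.87, adjusted p = 0.024), and Cx3cr1, the fractalkine receptor (256 to 394 CPM in T12 and 77.4 to 195 CPM in 4T1; log2 1.24, adjusted p = 0.012), were the others. T12 had the highest mean of the 13 models for 12 of the 24 genes.

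For 12 of the 24 macrophage genes all T12 libraries lay above all 4T1 libraries, and for none below, beside 25.6% and 26% of all genes. Mrc1, the mannose receptor, was at 492, 546 and 698 CPM in T12 and 253, 95.3, 183, 161 and 213 CPM in 4T1 (log2 difference 1.68, standard error 0.74, adjusted p = 0.076), separate but not called. Csf1r (467 to 624 CPM in T12 and 237 to 434 CPM in 4T1; adjusted p = 0.30), Cd68 (153 to 191 CPM in T12 and 70.7 to 128 CPM in 4T1; adjusted p = 0.23) and Trem2 (66.8 to 86.2 CPM in T12 and 30.5 to 51.4 CPM in 4T1; adjusted p = 0.30) showed the same separation without a call. The complement gene C1qa (485 to 576 CPM in T12 and 358 to 707 CPM in 4T1) and Apoe (1506 to 2255 CPM in T12 and 2016 to 3639 CPM in 4T1) overlapped between the models. The summed CPM of the 24 genes also overlapped, at 5490.3 to 6673 in T12 and 4157 to 6934 in 4T1. Apoe, the most abundant member, reached its highest values in 4T1. Without it the sums were 3984 to 4827 and 2008 to 3341. That separation came from leaving out a member that ran the other way, so no conclusion is drawn from it.

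The macrophage count depended on the fit. The fit of the 8 libraries alone, and DESeq2 and limma as well, called 14 of the 24 higher in T12. In the first this stands beside 31.3% of all genes, and Csf1r, Cd68, Mrc1 and Trem2 were among the 14. DESeq2 called 5884 of all 22815 genes it tested higher in T12, and limma 6422 of 22847. DESeq2 also called 1 of the 24 higher in 4T1. Without T12 replicate 3, or against 4T1 replicates 1 and 2 only, the count was 1, Ms4a7 in both. The Siglec1 call was also lost without 4T1 replicate 4, and the Vsig4 call without 4T1 replicate 2.

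The monocyte genes Ly6c2 (2.03 to 3.22 CPM in T12 and 1.23 to 3.30 CPM in 4T1) and Ccr2, the receptor of CCL2 (74.6 to 175 CPM in T12 and 37.5 to 122 CPM in 4T1), were not called, and of 9 monocyte genes tested 1 was higher in T12. That was Vcan, for versican (289 to 334 CPM in T12 and 19.0 to 37.2 CPM in 4T1; log2 3.65, adjusted p = 2.3e-07), which tumour and stromal cells also express. Ptprc, for the leukocyte antigen CD45, was at 126, 128 and 150.4 CPM in T12 and 84.1, 71.5, 96.0, 62.5 and 73.8 CPM in 4T1 and not called (adjusted p = 0.25), though it was called higher in T12 in the 8-library fit.

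Neutrophil genes were higher in 4T1, where 9 of 24 were called, beside 17.1% of all genes, and none was called higher in T12. For 15 of the 24 the groups were fully separate with 4T1 above, beside 26% of all genes, and for 1 with T12 above. S100a8, a calprotectin subunit, was at 3.05, 9.76 and 6.70 CPM in T12 and 12.7, 34.5, 19.4, 24.7 and 30.4 CPM in 4T1 (log2 difference -1.90, standard error 0.73, adjusted p = 0.038). Its partner S100a9 was at 7.66, 21.1 and 12.6 CPM and 25.1, 75.9, 34.4, 47.2 and 57.5 CPM and missed the threshold (log2 difference -1.80, standard error 0.84, adjusted p = 0.093). Cxcr2, the receptor for neutrophil chemokines, was at 1.39, 2.19 and 1.008 CPM in T12 and 4.24, 8.59, 4.12, 3.99 and 6.06 CPM in 4T1 (log2 difference -1.82, standard error 0.65, adjusted p = 0.024). The groups were separate for all 3 genes, with T12 below.

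Retnlg, a resistin-like neutrophil product (0.204 to 0.529 CPM in T12 and 2.40 to 8.005 CPM in 4T1; log2 -3.67, adjusted p = 0.017), Il1r2, a decoy receptor of IL-1 (1.60 to 2.53 CPM in T12 and 8.93 to 12.4 CPM in 4T1; log2 -2.38, adjusted p = 9.4e-04), Trem1 (3.99 to 7.599 CPM in T12 and 12.9 to 19.6 CPM in 4T1; log2 -1.50, adjusted p = 0.010) and Stfa2l1, a stefin (0.152 to 0.450 CPM in T12 and 1.30 to 3.36 CPM in 4T1; log2 -3.02, adjusted p = 0.0089), were also called. Ly6g, which defines mouse neutrophils, was under 1 CPM in every library (0.0120 to 0.0542 CPM in T12 and 0.154 to 0.240 CPM in 4T1; log2 -2.64, adjusted p = 0.077), and Il1b was at 17.0 to 29.3 CPM in T12 and 42.3 to 81.1 CPM in 4T1 (adjusted p = 0.057). Csf3r, the G-CSF receptor, overlapped between the models (18.1 to 27.3 CPM in T12 and 17.7 to 30.6 CPM in 4T1) and was not called.

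The 3 largest differences in the neutrophil list were of genes that other cells can express. Padi4, for a peptidylarginine deiminase that citrullinates histones in neutrophils, was at 0.0360, 0.164 and 0.0976 CPM in T12 and 483, 339, 478, 447 and 443 CPM in 4T1 (log2 difference -12.09, standard error 0.84, adjusted p = 1.2e-20). It lies at chr4:140745865-140774236, and the next highest model, 2208, had a mean of 38.3 CPM. Per kilobase of exon, 4T1 had 90.6 CPM of Padi4, beside 6.91 of Csf3r, 1.77 of Cxcr2, 0.215 of Ly6g and 92.0 of S100a9. Lcn2, for lipocalin-2, was at 1.67 to 3.14 CPM in T12 and 346 to 757 CPM in 4T1 (log2 -7.73, adjusted p = 4.5e-18), and Mmp9 is given above. Which cells held these transcripts was not measured.

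The summed CPM of the 24 neutrophil genes was 124 to 194 in T12 and 1197 to 1683 in 4T1. Without Padi4, Lcn2 and Mmp9 the sums were 115 to 184 and 203 to 357, still separate, and 6 of the other 21 genes were called higher in 4T1. Without T12 replicate 1 or without T12 replicate 3 the count for the full list was 5, and the calls of Cxcr2, Retnlg, S100a8 and Stfa2l1 were lost in both. The call of S100a8 was also lost without 4T1 replicate 2 or 5, that of Cxcr2 without 4T1 replicate 2 and that of Trem1 without T12 replicate 3. The 8-library fit called 15, beside 30.3% of all genes.

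Granule genes of immature neutrophils were at low levels, and 2 of 9 were called higher in T12 and 1 higher in 4T1. Mpo, for myeloperoxidase, was at 0.0120, 0.718 and 2.64 CPM in the 3 T12 libraries and 0.135 to 0.202 CPM in 4T1 (log2 2.66, adjusted p = 0.0072), and Elane, for neutrophil elastase, at 0.0240, 0.327 and 1.32 CPM and 0 to 0.0672 CPM (log2 3.59, adjusted p = 6.7e-04). Both calls rested on T12 replicate 3 and were lost without it, and the counts without that library were 0 of the list higher in T12 and 3 higher in 4T1. Ctsg, for cathepsin G, was higher in 4T1 (0.0720 to 0.412 CPM in T12 and 0.971 to 2.92 CPM in 4T1; log2 -2.97, adjusted p = 0.023), a call lost without T12 replicate 1 or 2 or 4T1 replicate 4. No granule gene was called higher in 4T1 when any of those 3 libraries was left out, and 2 were without 4T1 replicate 3. Ltf (0.113 to 2.14 CPM in T12 and 1.65 to 3.11 CPM in 4T1) and Camp (0.0360 to 1.16 CPM in T12 and 0.250 to 0.386 CPM in 4T1) were not called.

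**Figure D4:**
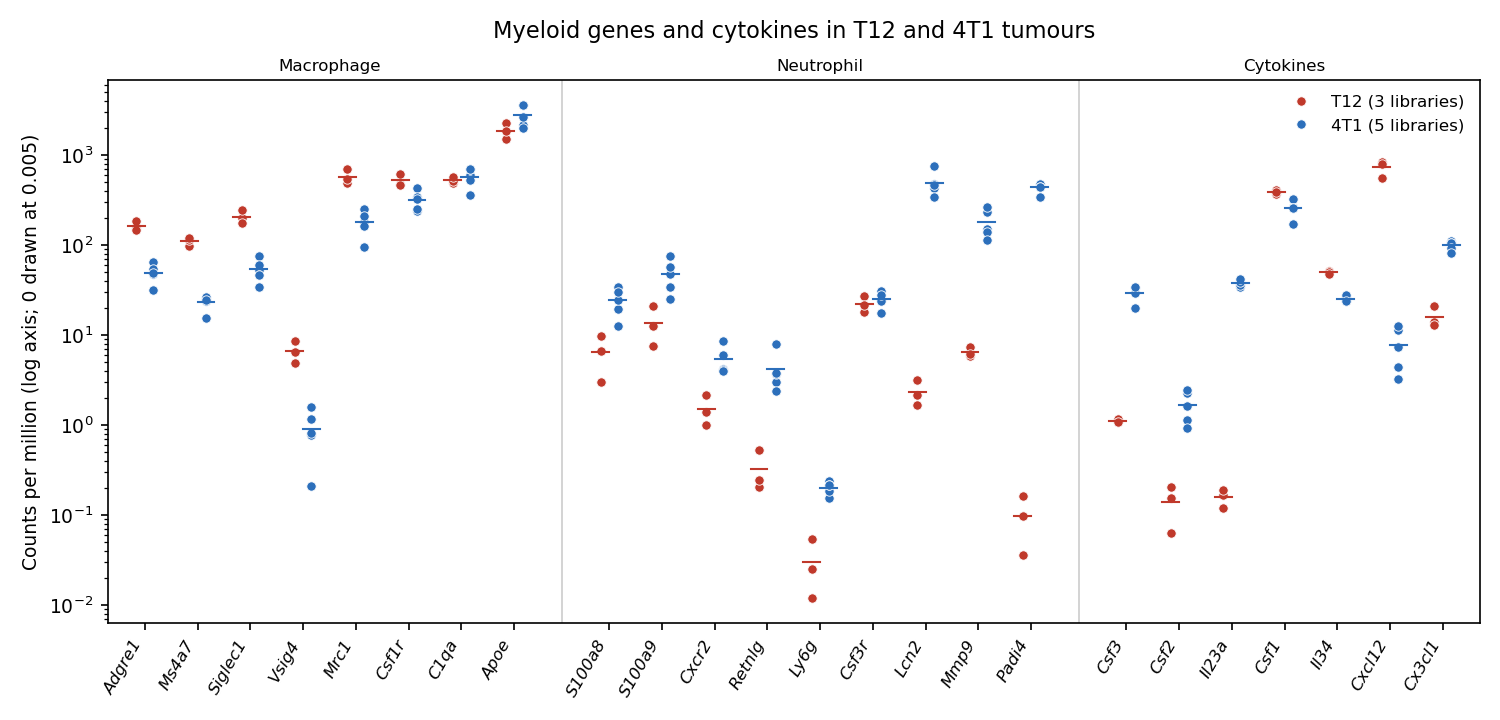
CPM on a log axis for macrophage genes, neutrophil genes and cytokines. Each point is a library, red for T12 (n = 3) and blue for 4T1 (n = 5), with short lines at the group means. Adgre1 and Ms4a7 are higher in T12, C1qa, Apoe and Csf3r overlap, and Padi4 lies between 339 and 483 CPM in 4T1 and at most 0.164 CPM in T12.

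Of 13 neutrophil attractants and growth factors tested 4 were called higher in 4T1 and none higher in T12. The shares of all genes were 17.1% and 15.4%. The 8-library fit, DESeq2 and limma each called 7 higher in 4T1, in the first beside 30.3% of all genes. Csf3, which encodes G-CSF, was at 1.09, 1.16 and 1.07 CPM in T12 and 19.8, 33.3, 29.8, 29.1 and 34.3 CPM in 4T1 (log2 difference -4.72, standard error 0.86, adjusted p = 6.6e-06), and 4T1 had the highest mean of the 13 models. Csf2, for GM-CSF, was at 0.0630 to 0.206 CPM in T12 and 0.934 to 2.44 CPM in 4T1 (log2 -3.55, adjusted p = 6.1e-04). Il23a, for a subunit of interleukin-23, was at 0.168, 0.189 and 0.119 CPM in T12 and 34.5, 36.6, 36.2, 38.9 and 42.3 CPM in 4T1 (log2 difference -7.88, standard error 0.87, adjusted p = 6.9e-12). The CXCR2 ligands Cxcl1 (6.34 to 17.2 CPM in T12 and 5.73 to 26.3 CPM in 4T1), Cxcl2 (1.49 to 5.68 CPM in T12 and 3.41 to 10.3 CPM in 4T1) and Cxcl5 (2.16 to 9.41 CPM in T12 and 1.17 to 8.98 CPM in 4T1) were not called and overlapped.

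Of 14 monocyte and macrophage attractants 2 were called higher in T12 and 1 higher in 4T1, beside 15.4% and 17.1% of all genes. These counts did not exceed the shares of all genes. The 8-library fit called 7 and 3, beside 31.3% and 30.3% of all genes. Cxcl12, the ligand of CXCR4, was at 831, 558 and 796 CPM in T12 and 3.29, 4.46, 11.4, 12.5 and 7.47 CPM in 4T1 (log2 difference 6.54, standard error 0.85, adjusted p = 1.6e-09). T12 had the highest Cxcl12 mean of the 13 models, with 2224 next at 174 CPM. Il34, the other ligand of CSF1R, was at 48.1 to 51.8 CPM in T12 and 24.0 to 28.1 CPM in 4T1 (log2 0.98, adjusted p = 0.010), while Csf1 was at 371 to 406 CPM in T12 and 170.2 to 322 CPM in 4T1 and not called (adjusted p = 0.12). The chemokine genes Ccl2 (30.6 to 48.9 CPM in T12 and 12.99 to 27.0 CPM in 4T1), Ccl7 (30.6 to 38.5 CPM in T12 and 8.40 to 18.6 CPM in 4T1) and Ccl8 (46.9 to 71.2 CPM in T12 and 6.47 to 20.8 CPM in 4T1) had separate groups with T12 above, but were not called (adjusted p = 0.23, 0.13 and 0.13). Cx3cl1, for fractalkine, went the other way, with 14.1, 20.98 and 12.98 CPM in T12 and 109.7, 105, 105, 94.0 and 82.2 CPM in 4T1 (log2 difference -2.63, standard error 0.41, adjusted p = 2.6e-07), opposite to its receptor Cx3cr1.

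Among 14 receptors of myeloid cells 1 was called higher in T12, Cx3cr1, and 3 higher in 4T1, beside 15.4% and 17.1% of all genes. The 8-library fit called 5 higher in T12 and 4 higher in 4T1, beside 31.3% and 30.3% of all genes. Without T12 replicate 3 none was called higher in T12. The 3 called higher in 4T1 were Il1r1, the IL-1 receptor (12.6 to 27.7 CPM in T12 and 88.3 to 120.2 CPM in 4T1; log2 -2.37, adjusted p = 3.7e-06), Cxcr2 and Il6ra (29.5 to 38.7 CPM in T12 and 59.2 to 90.9 CPM in 4T1; log2 -1.20, adjusted p = 0.0049).

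Genes linked to suppression of immunity by myeloid cells were called higher in 4T1 for 5 of 14 and higher in T12 for 1. The shares of all genes were 17.1% and 15.4%. Arg1, for arginase, was at 40.3, 87.1 and 15.2 CPM in T12 and 240.3, 175, 304, 289.5 and 383 CPM in 4T1 (log2 difference -2.55, standard error 0.63, adjusted p = 9.2e-04). Pdcd1lg2, a PD-1 ligand gene (0.130 to 0.214 CPM in T12 and 0.619 to 4.90 CPM in 4T1; log2 -3.63, adjusted p = 0.0054), and Ptges, for a prostaglandin E synthase (13.4 to 20.99 CPM in T12 and 56.1 to 67.1 CPM in 4T1; log2 -1.86, adjusted p = 0.0085), were higher in 4T1. Ptgs2, for cyclooxygenase-2, was higher in T12 (137 to 268 CPM in T12 and 38.4 to 75.2 CPM in 4T1; log2 2.06, adjusted p = 0.017), a call lost without T12 replicate 1 or 2, and that of Ptges was lost without T12 replicate 3. Nos2 (4.04 to 13.4 CPM in T12 and 7.65 to 33.5 CPM in 4T1) and Cd274, for PD-L1 (11.5 to 33.0 CPM in T12 and 18.1 to 53.2 CPM in 4T1), were not called. Spp1, for osteopontin, which tumour cells and macrophages both make, was at 726, 1174 and 975 CPM in T12 and 8713, 4600.4, 4727, 6072 and 4475 CPM in 4T1 (log2 difference -2.58, standard error 1.01, adjusted p = 0.040). That call was lost without any 1 T12 library and without 4T1 replicate 1 or 4; the groups did not overlap.

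Genes of antigen presentation had higher values in 4T1, and few passed the test. Cd74, the class II invariant chain, was at 318, 302 and 189.7 CPM in T12 and 918, 1005, 2212, 562 and 1252 CPM in 4T1 (log2 difference -2.14, standard error 0.94, adjusted p = 0.071), with 4T1 replicate 3 highest. H2-Aa was at 89.3 to 118 CPM in T12 and 129.8 to 622 CPM in 4T1 (adjusted p = 0.23). None of 9 class II genes was called by the 82-library fit and 6 by the 8-library fit, all higher in 4T1. At an unadjusted p under 0.05 the 82-library count was 5. Of 10 class I pathway genes 2 were called higher in 4T1 (7 in the 8-library fit), Tapbp, for the peptide-loading chaperone tapasin (166 to 189.9 CPM in T12 and 407 to 603 CPM in 4T1; log2 -1.46, adjusted p = 3.7e-06), and Erap1, for a peptide-trimming enzyme (57.7 to 67.9 CPM in T12 and 87.4 to 113 CPM in 4T1; log2 -0.60, adjusted p = 0.011). The Erap1 call was lost without T12 replicate 2. Of all genes, 17.1% were called higher in 4T1 in the 82-library fit and 30.3% in the 8-library fit. The 82-library count of class I genes was near that share.

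T cell genes gave no call. None of 18 was called in the 82-library fit, the 8-library fit, DESeq2 or limma, 0 at an unadjusted p under 0.05 in the first. Cd3e (1.04 to 1.39 CPM in T12 and 0.576 to 4.05 CPM in 4T1), Cd8a (2.77 to 3.87 CPM in T12 and 0.558 to 5.63 CPM in 4T1) and Foxp3 (1.49 to 1.52 CPM in T12 and 0.645 to 2.73 CPM in 4T1) overlapped, and 4T1 replicate 3 was the highest 4T1 library for each. Yet genes of the granzyme cluster were far higher in 4T1. Gzmd was at 0.773, 0.674 and 0.201 CPM in T12 and 55.4, 52.7, 62.4, 147 and 57.7 CPM in 4T1 (log2 difference -7.09, standard error 1.58, adjusted p = 2.1e-04). Gzmc (2.22 to 6.85 CPM in T12 and 27.9 to 83.1 CPM in 4T1; log2 -3.42, adjusted p = 0.016) and Prf1, for perforin (1.68 to 2.45 CPM in T12 and 12.5 to 38.7 CPM in 4T1; log2 -3.33, adjusted p = 0.0044), were called too, the former not without T12 replicate 2 or 3. Gzme (log2 -6.72), Gzmf (-7.33) and Gzmg (-10.85), which were looked at after their values were seen, had the same direction.

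These granzymes are similar paralogs side by side on chromosome 14, so reads may have been shared between them. The natural killer receptor gene Ncr1 (2.26 to 2.997 CPM in T12 and 0.547 to 1.90 CPM in 4T1) and Gzmb (3.50 to 8.94 CPM in T12 and 6.48 to 25.1 CPM in 4T1) were not called, and 4T1 replicate 4 was the highest library for Gzmc, Gzmd, Gzmb and Prf1. Of 14 NK and cytotoxic genes 3 were called higher in 4T1 and none higher in T12, beside 17.1% and 15.4% of all genes. Of 20 interferon-response genes 1 was called in each direction (5 higher in T12 and 2 higher in 4T1 in the 8-library fit), Ifit2 higher in T12 (41.1 to 71.9 CPM in T12 and 12.5 to 30.8 CPM in 4T1; log2 1.28, adjusted p = 0.038) and Ifi35 higher in 4T1 (28.5 to 32.7 CPM in T12 and 40.9 to 58.8 CPM in 4T1; log2 -0.76, adjusted p = 0.025), both calls lost when single libraries were left out. Isg15 was at 18.5 to 39.1 CPM in T12 and 20.1 to 42.3 CPM in 4T1.

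B cell genes were at low levels in both models, with 5 of 11 called higher in T12 and 1 higher in 4T1. The count of 5 was 3 without T12 replicate 1 and 2 without T12 replicate 3. Jchain, which joins secreted antibodies, was at 2.33, 1.73 and 3.53 CPM in T12 and 0.106, 0.0462, 0.140, 0.495 and 0.0901 CPM in 4T1 (log2 difference 3.86, standard error 0.85, adjusted p = 1.9e-04). Pax5, the B cell identity factor, was at 0.802 to 2.38 CPM in T12 and 0.125 to 0.394 CPM in 4T1 (log2 2.70, adjusted p = 0.0080), a call lost without T12 replicate 1. Cd79a, an antigen receptor subunit, overlapped (0.416 to 0.683 CPM in T12 and 0.120 to 0.698 CPM in 4T1). The gene higher in 4T1 was Xbp1, a secretory stress factor that many cells express (111 to 127 CPM in T12 and 189 to 219 CPM in 4T1; log2 -0.81, adjusted p = 0.0015).

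Markers of other tissue showed how the samples themselves varied. Endothelial genes had summed levels of 380.3 to 722 CPM in T12 and 643 to 872 CPM in 4T1, and Pecam1 (58.6 to 127 CPM in T12 and 70.1 to 112 CPM in 4T1) and Cdh5 (66.0 to 147 CPM in T12 and 80.3 to 139.8 CPM in 4T1) were not called. Of 16 tested, Eng, for endoglin (30.7 to 48.1 CPM in T12 and 169 to 204 CPM in 4T1; log2 -2.20, adjusted p = 4.2e-06), and Vwf (1.26 to 3.96 CPM in T12 and 9.12 to 18.8 CPM in 4T1; log2 -2.38, adjusted p = 0.010) were higher in 4T1, the Vwf call not without T12 replicate 1 or 2. Of 14 fibroblast genes Cxcl12 and Pdpn, for podoplanin (326 to 341 CPM in T12 and 15.3 to 22.7 CPM in 4T1; log2 4.23, adjusted p = 2.9e-09), were called higher in T12 and Scara5 higher in 4T1 (1.70 to 4.27 CPM in T12 and 7.98 to 15.7 CPM in 4T1; log2 -2.03, adjusted p = 0.0017). Dcn, for decorin, was at 275 to 317 CPM in T12 and 58.3 to 113 CPM in 4T1 and not called (adjusted p = 0.074).

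Skeletal muscle genes were low in all T12 libraries, at 4.70 to 8.03 summed CPM over 14 genes, and ranged from 33.7 to 371 CPM in 4T1, where replicates 1 and 3 held 371 and 157 CPM. None was called in the 82-library fit, 5 at an unadjusted p under 0.05, and 11 were higher in 4T1 in the 8-library fit. Without 4T1 replicates 1 and 3 the counts of called genes were 18 of 20 junction genes and 20 of 24 epithelial regulators higher in 4T1, 9 of 24 neutrophil genes higher in 4T1 and 4 of 24 macrophage genes higher in T12. Of the other marker lists, 11 of 16 luminal genes were called higher in 4T1 and 2 higher in T12, a list that shares keratins and regulators with those above. Of 10 adipocyte genes 2 were called, and of 12 dendritic cell, 10 pericyte and 10 milk genes 1 each, all higher in 4T1, while none of 8 mast cell, 7 erythroid and 2 eosinophil genes was called. At an unadjusted p under 0.05 the last 3 lists had 0, 0 and 1 genes, and the 8-library fit called 0, 3 and 1. Adipocyte genes were highest in 4T1 replicate 4 (221 summed CPM) and endothelial genes in 4T1 replicate 2 (872 CPM). Fibroblast genes in T12 replicate 2 summed to 3228 CPM against 1951 CPM in T12 replicate 1.

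**Figure D5:**
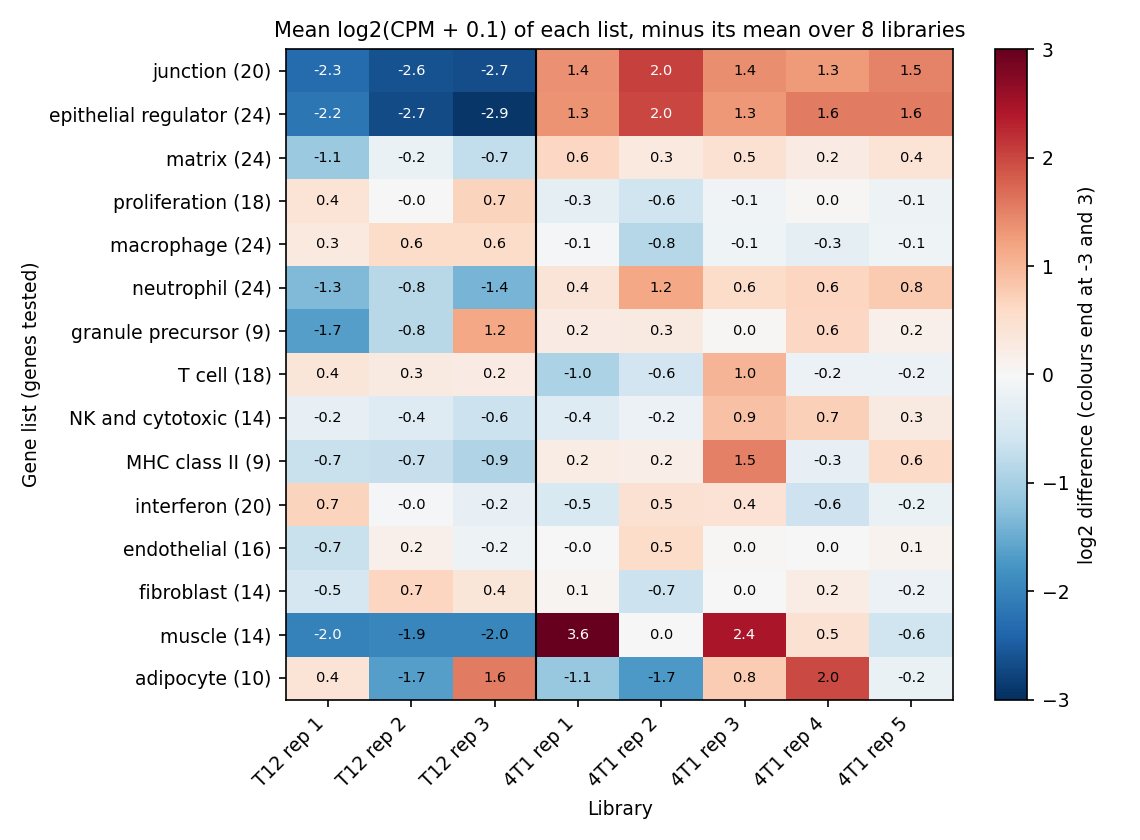
Mean log2(CPM + 0.1) of each list in each library, minus the mean over the 8 libraries, with T12 left and 4T1 right of the line. Junction genes are at -2.66 to -2.32 in T12 and 1.27 to 2.05 in 4T1, whereas muscle, adipocyte, T cell and class II genes vary within a model.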

How the data were processed

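Read alignment and quantification were done by the authors. The submitters' processing notes name STAR, SAMtools, Picard, Salmon and mm10, without versions or roles. The deposited count table holds expected counts per gene, which need not be whole and were rounded here. A second deposited table holds a normalized signal. Its values show that the authors scaled every library to an upper quartile of 1000, taken over its genes with a count, and wrote 1 for a count of 0. Pairs of same-model libraries differed by far more than sampling noise (chi-square per degree of freedom 31.2 to 152), and each library correlated best with a library of its own model. Strand and annotation are not given in the sources used here, so antisense and overlapping partners cannot be told apart.

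Genes were kept with filterByExpr by model, scaled with TMM and tested with edgeR 4.0.16 (R 4.3.3) in 1 quasi-likelihood fit of 82 libraries and 13 model means, with Benjamini-Hochberg adjustment over 22847 genes. Alternatives were the 8 libraries alone, a fit without the filter, size factors in place of TMM, DESeq2 1.42.0 in place of edgeR, limma 3.58.1 on log2(signal + 1), 4T1 replicates 1 and 2 or 3 to 5 only, and each library left out. An alternative without 4T1 replicates 1 and 3, and a neutrophil list without Padi4, Lcn2 and Mmp9, were added after seeing the data. The text names 90 core genes, the 10 largest differences in each direction among called genes with a mean of at least 5 CPM and no overlap between the models, and up to 3 called members of each of 40 lists in each direction; a few genes under this rule are not reported here. A further set (chromosome 6 genes outside the Met list, Gzme, Gzmf, Gzmg and list members such as Capza2, Tjp1, Il1r2 and Gata3) was named after the values were seen. The members and lists were chosen with earlier results of these data known. CPM divides a gene's count by the library's total over the genes tested, multiplied by its TMM factor. Acod1 and Patj were found in the table under Irg1 and Inadl. Coordinates are of GENCODE M21 genes matched by symbol, which placed 233 of 233 named genes. The scripts were tested on simulated data.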

Additional observations from a re-analysis of the deposited data

Results flagged for a closer look

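In the 5 4T1 libraries, 1 library stood apart from the other 4 by a gap that took up most of the group's range for 15 of 97 genes and 1 of 40 list sums. Chance marks about 1 in 20 such groups, and T12, with 3 libraries, was not examined. 4T1 replicate 2 was the library apart most often. It was highest for Elf3 (24.9 CPM), Erbb3 (39.7 CPM), Krt14 (88.4 CPM), Ocln (17.7 CPM), Retnlg (8 CPM), Ltf (3.11 CPM), Cdh5 (140 CPM) and the summed endothelial genes (872 CPM). The same library was lowest for Cd44 (357 CPM) and Padi4 (339 CPM). 4T1 replicate 3 was highest for the T cell genes Cd3e (4.05 CPM) and Cd8a (5.63 CPM) and for Cd274 (53.2 CPM). 4T1 replicate 1 was highest for Fn1 (16854 CPM), Pdgfra (166 CPM) and Cdkn2a (0.336 CPM), the last within a range far under the 191 to 205 CPM of T12.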

How the results depend on the processing

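Of 233 named genes tested 170 were called, and 126 of those under each of the 16 alternatives fitted. The number of genes called was 7413, and it was 11373 in the 8-library fit, 12229 with DESeq2 and 11805 with limma. Calls higher in T12 numbered 3513, against 5778, 5884 and 6422 in these, and 2120 with 4T1 replicates 1 and 2 only. Calls higher in 4T1 numbered 3900, against 6345 with DESeq2. With single libraries left out the total was 5840 to 6980, with 2776 to 3270 higher in T12 and 3038 to 3710 higher in 4T1. The macrophage count of 5 was 14 in the 8-library fit, with DESeq2 and with limma, and 1 with 4T1 replicates 1 and 2 only; it was 1 to 5 with single libraries left out. The neutrophil count of 9 was 15, 16 and 15 in the first 3 of these, 6 without the 6 members that epithelial tumour cells can express, 6 without Padi4, Lcn2 and Mmp9 (the latter list chosen after seeing the data), and 5 to 10 with single libraries left out. Of the 80 list counts (40 lists in each direction), 36 moved by more than 1.5 times in the 8-library fit, 40 with DESeq2, 36 with limma, 21 against 4T1 replicates 1 and 2 only, 2 with size factors in place of TMM and 4 without the filter; without 1 T12 library 10 to 16 moved, and without 1 4T1 library 1 to 6. The cause of these shifts was not tested. Genes that were not called took the other sign as follows, as log2 differences. Against 4T1 replicates 1 and 2 only, these were C1qa 0.13, Cd274 0.064, Cd3e 0.95, Cdh5 -0.14, Foxp3 0.89, Isg15 -0.16, Krt5 3.33, Pdgfrb -0.13 and Snai1 0.24. With limma, these were Camp -0.80, Cd3e 0.13 and Foxp3 0.21. Without 4T1 replicates 1 and 3, these were Cd3e 0.31, Cdh5 -0.11, Cxcl5 -0.028, Foxp3 0.11 and Isg15 -0.018. In the 8-library fit, these were Foxp3 0.016 and Pecam1 0.018. With DESeq2 size factors, these were Foxp3 0.0098 and Pecam1 0.018. Against 4T1 replicates 3 to 5 only, this was Pecam1 0.033. With single libraries left out the ranges were Camp from -2.95 to 1.004, Ccr2 from -0.098 to 0.59, Cd274 from -0.71 to 0.012, Cd3e from -0.50 to 0.48, Cdh5 from -0.36 to 0.26, Cxcl5 from -0.32 to 0.99, Ehf from -0.0084 to 2.13, Foxp3 from -0.20 to 0.32, Isg15 from -0.26 to 0.28, Krt5 from -2.08 to 1.29, Pdgfrb from -0.39 to 0.25, Pecam1 from -0.37 to 0.22 and Snai1 from -0.32 to 0.095. No paired analysis was possible because the labels give the 2 models no shared replicate numbers. Depth limits only genes near 0: 3 counts over a group correspond to 0.0118 CPM in T12 and 0.00615 CPM in 4T1, and these cover counting error only.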

Other observations

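Luminal genes and a dendritic cell factor gave differences not described above. Gata3, a luminal transcription factor, was at 17.8, 14.6 and 13.97 CPM in T12 and 116, 109, 114, 123 and 132.9 CPM in 4T1 (log2 difference -2.94, standard error 0.46, adjusted p = 2.8e-07), and Cd24a, a mucin-like epithelial antigen gene, at 6.33 to 12.2 CPM in T12 and 229.7 to 280.2 CPM in 4T1 (log2 -4.71, adjusted p = 9.9e-27). Esr1, for the oestrogen receptor, was at 9.08 to 9.99 CPM in T12 and 16.1 to 24.4 CPM in 4T1 (log2 -1.05, adjusted p = 0.037), a call lost without any 1 T12 library or without 4T1 replicate 1 or 2. Aldh1a3, an aldehyde dehydrogenase of luminal progenitors, went the other way, with 2.95, 4.08 and 2.91 CPM in T12 and 0.480, 0.157, 0.433, 0.787 and 0.666 CPM in 4T1 (log2 difference 2.72, standard error 0.67, adjusted p = 9.0e-04). T12 thus had the lower level of Gata3 and the higher level of Aldh1a3, with no overlap for either gene. Zbtb46, a factor of classical dendritic cells and endothelium, was higher in 4T1 (2.83 to 5.31 CPM in T12 and 8.90 to 12.7 CPM in 4T1; log2 -1.27, adjusted p = 0.0024), while Flt3, the receptor of dendritic cell precursors, was not called (0.792 to 2.99 CPM in T12 and 0.432 to 1.49 CPM in 4T1). Pnpla2, for a triglyceride lipase that many tissues use, was higher in 4T1 (37.6 to 42.3 CPM in T12 and 74.4 to 88.4 CPM in 4T1; log2 -1.03, adjusted p = 0.0015), while the fat cell hormone gene Adipoq was not called (0.0378 to 4.19 CPM in T12 and 0.00924 to 5.28 CPM in 4T1). Flt3 and Adipoq are given after their values were seen.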
